A study of Danio rerio with 10 samples.

Results

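Aminoacyl-tRNA synthetases join each amino acid to its transfer RNA and so supply the ribosome with charged tRNA. Vertebrates encode separate enzymes for the cytosol (most names ending in 1, with farsa and farsb for the subunits of the phenylalanine enzyme) and for the mitochondrion (names ending in 2), although in human cells the glycine and lysine enzymes serve both compartments from a single gene. In mammals several cytosolic enzymes are bound together on scaffold proteins in the multisynthetase complex, and many cytosolic synthetase genes are targets of ATF4, the transcription factor induced when eIF2alpha is phosphorylated.

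The genes described here were all those whose symbol follows the naming pattern of these enzymes and that had a probe set annotated with that symbol alone. There were 31 such genes among 19260 genes with a symbol of their own on the array, 18 cytosolic (aars1, cars1, farsa, farsb, gars1, hars, iars1, kars1, lars1b, mars1, nars1, qars1, rars1, sars1, tars1, vars1, wars1 and yars1) and 13 mitochondrial (aars2, cars2, fars2, iars2, lars2, mars2, nars2, rars2, sars2, tars2, vars2, wars2 and yars2). The naming rule itself uses no measured value. A second probe set was present for fars2 and for yars2, and in each case the probe set with the higher mean over the 10 arrays was used. All 31 identifiers were found in the RefSeq gene table under the same symbols.

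Whole zebrafish embryos were pooled at 48 hpf (2 dpf), and 100 ng of RNA from each pool was hybridized to 1 of 10 Affymetrix Zebrafish Gene 1.0 ST arrays. There were 3 arrays of morphants (wildtype embryos injected with a translation-blocking morpholino, T-MO, against the LIM homeodomain gene islet2a), 3 of embryos homozygous for an islet2a frameshift allele made with TALENs, 2 of uninjected wildtype embryos (titled WT_control) and 2 of homozygous wildtype siblings of the mutants (titled mock_control, though described as siblings with no injection named). The 4 wildtype arrays formed a single control group, so that the comparisons of morphants and of mutants with controls share their control arrays. All mutants carry the same allele, and control-morpholino embryos were on 0 of the arrays, so that injection and knockdown cannot be told apart. Separate clutches are not stated for replicate pools, so p-values reflect only how far these pools spread, which may be technical. In whole embryos, fewer cells of a type and less RNA per cell cannot be told apart.

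The deposited log2 signals had array medians between 4.92 and 4.96, and arrays correlated over all probe sets at r of 0.983 to 0.992 within a group (12 pairs) and 0.972 to 0.988 between groups (33 pairs). The probe set of the targeted gene (isl2a) gave 8.51 to 8.61 on the control arrays, 8.95 to 9.13 on the mutant arrays and 9.79 to 9.96 on the morphant arrays. Neither a block of translation nor a small deletion has to lower this signal, so it does not check the labels. Skeletal muscle markers were bright on every array (mean log2 signal 11.35 to 11.58) and 0 of 6 passed in any comparison. No measured marker of liver and yolk syncytial layer, exocrine pancreas, gut epithelium or proliferating cells passed against controls (0 of 2, 0 of 4, 0 of 3 and 0 of 5). Markers of neurons, lens, photoreceptors and erythrocytes included 1 of 4, 1 of 5, 1 of 4 and 1 of 4 measured genes that were lower in morphants than in controls (stmn2a, cryaa, crx and alas2). These counts stand beside 1.57% of all probe sets lower. The log2 fold changes of single genes ranged from -0.56 to -0.01 for neurons and from -1.48 to -0.24 for lens. They ranged from -1.54 to 0.07 for photoreceptors and from -0.81 to 0.36 for erythrocytes. Relative to the control mean, the mean level of these lists in morphants ranged from -0.60 to -0.03 for neurons, -0.70 to -0.35 for lens, -0.77 to -0.35 for photoreceptors and -0.35 to -0.10 for erythrocytes on the log2 scale. Their part in the results below was not tested.

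Most cytosolic synthetase genes passed the test as higher in morphants than in wildtype embryos, and few mitochondrial ones did. At an adjusted p below 0.05 (limma, Benjamini-Hochberg over all 75212 probe sets), 17 of the 31 genes were higher in morphants than in controls and 0 were lower. These were 14 of the 18 cytosolic genes (77.8%) and 3 of the 13 mitochondrial genes (23.1%), namely mars2, sars2 and yars2, against 3.59% of all probe sets higher and 1.57% lower. Among probe sets with 1 symbol the share of higher ones was 6.83%. Among probe sets at least as bright as the dimmest cytosolic member it was 8.86%, and within the brightness range of the mitochondrial members it was 6.24%. The median log2 fold change was 0.73 for the cytosolic genes (1.66-fold, range -0.14 to 1.30) and 0.18 for the mitochondrial genes (1.14-fold, range -0.02 to 1.03), beside -0.02 for all probe sets. The cytosolic genes that did not pass were gars1 (0.21), nars1 (-0.14), vars1 (0.26) and wars1 (0.23). With a 2-fold change required as well, 4 genes passed (iars1, qars1, yars1 and yars2), against 0.67% of all probe sets. The human counterparts of gars1 and kars1 serve both compartments. Without these genes, 13 of 16 cytosolic genes (81.2%) were higher at an adjusted p below 0.05.

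**Figure D1:**
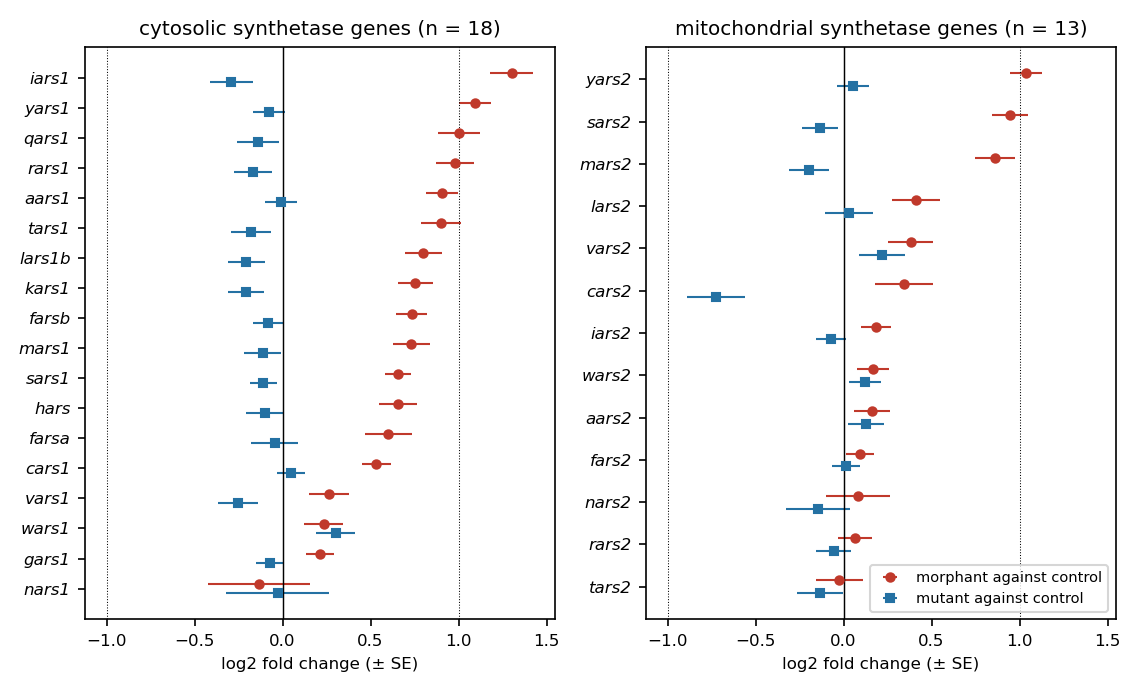
Log2 fold change against the 4 control arrays (x axis, ± SE from the limma fit) for each of the 18 cytosolic and 13 mitochondrial synthetase genes, with morphants as red circles and mutants as blue squares, and dotted lines at a 2-fold change. Most cytosolic genes have red points between 0.5 and 1.3 and blue points near 0, while 10 of the 13 mitochondrial genes have red points below 0.5.

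Synthetases fall into class I and class II by the fold of their catalytic domain, and 7 of 9 cytosolic genes of each class were higher in morphants than in controls (median log2 fold changes 0.80 and 0.66). All 6 genes whose mammalian products sit in the multisynthetase complex (iars1, kars1, lars1b, mars1, qars1 and rars1) were higher (median 0.89), as were 8 of the 12 other cytosolic genes (median 0.63). Across the 18 cytosolic genes, mean log2 signal and log2 fold change had a Pearson r of -0.38 and a Spearman rho of -0.30. Across the 13 mitochondrial genes these were -0.02 and 0.18, and across all 31 genes 0.22 and 0.25. The genes were measured on the same arrays and are not independent replicates. The median of the mean log2 signals was 9.08 for cytosolic and 6.44 for mitochondrial genes. The part of signal level in the difference between compartments was not tested.

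The largest rise was that of iars1 (probe set 12977148), which encodes isoleucyl-tRNA synthetase. Its log2 signal was 9.74, 9.85 and 9.89 on the morphant arrays, 8.41, 8.12 and 8.17 on the mutant arrays, 8.23 and 8.69 on the uninjected arrays and 8.57 and 8.61 on the sibling arrays. All morphant arrays lay above all others, and the mutant arrays overlapped the uninjected ones. The log2 fold change in morphants was 1.30 ± 0.12 (SE, 2.47-fold, adjusted p = 0.000447) against controls and 1.59 ± 0.13 (3.02-fold, adjusted p = 0.000167) against mutants.

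Other enzymes of the mammalian complex gave the same separation of arrays. For qars1 (probe set 13255784, glutaminyl-tRNA synthetase) the values were 9.76, 9.96 and 9.80 in morphants, 8.87, 8.69 and 8.52 in mutants, 8.88 and 9.06 in uninjected and 8.74 and 8.67 in sibling wildtype embryos. The gap between the lowest morphant and the highest control array was larger than the whole range of the controls, and the log2 fold change against controls was 1.00 ± 0.12 (adjusted p = 0.00145). For rars1 (probe set 13111534, arginyl-tRNA synthetase) the morphant arrays read 8.90, 8.85 and 8.79, the mutant arrays 7.93, 7.55 and 7.62, the uninjected arrays 7.81 and 8.02 and the sibling arrays 7.84 and 7.80. Here too no morphant array overlapped another group, and the log2 fold change was 0.98 ± 0.11 (adjusted p = 0.00101).

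The leucine enzyme of the cytosol (lars1b, probe set 13118162) gave 9.31, 9.23 and 9.33 in morphants, 8.53, 8.13 and 8.20 in mutants, 8.36 and 8.54 in uninjected and 8.51 and 8.56 in sibling embryos. Morphants stood apart, and mutant replicate 1 lay within the control range while the other 2 mutant arrays lay below it. The log2 fold change was 0.80 ± 0.11 against controls (adjusted p = 0.00248) and 1.01 ± 0.11 against mutants (adjusted p = 0.000769).

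Of the enzymes outside the complex, yars1 (probe set 13069751, tyrosyl-tRNA synthetase) changed most. Its signals were 9.64, 9.61 and 9.74 in morphants, 8.54, 8.39 and 8.55 in mutants, 8.46 and 8.74 in uninjected and 8.56 and 8.53 in sibling embryos, with no overlap between morphants and the rest. The log2 fold change against controls was 1.09 ± 0.09 (2.13-fold, adjusted p = 0.000268). Threonyl-tRNA synthetase (tars1, probe set 13197684) read 9.31, 9.59 and 9.21 in morphants, 8.46, 8.15 and 8.26 in mutants, 8.41 and 8.52 in uninjected and 8.54 and 8.40 in sibling embryos. The morphant arrays again lay above all others, and the log2 fold change was 0.90 ± 0.11 against controls (adjusted p = 0.00175) and 1.08 ± 0.12 against mutants (adjusted p = 0.000701).

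The remaining 8 cytosolic genes that passed (aars1, cars1, farsa, farsb, hars, kars1, mars1 and sars1, the enzymes for alanine, cysteine, phenylalanine, histidine, lysine, methionine and serine) had log2 fold changes between 0.53 (cars1) and 0.91 (aars1). The call for farsa was the least secure (0.60 ± 0.13, adjusted p = 0.0303), and it was lost in 5 of the 10 fits that each left out an array. Its beta-subunit partner farsb rose by 0.73 ± 0.09 (adjusted p = 0.00146).

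**Figure D2:**
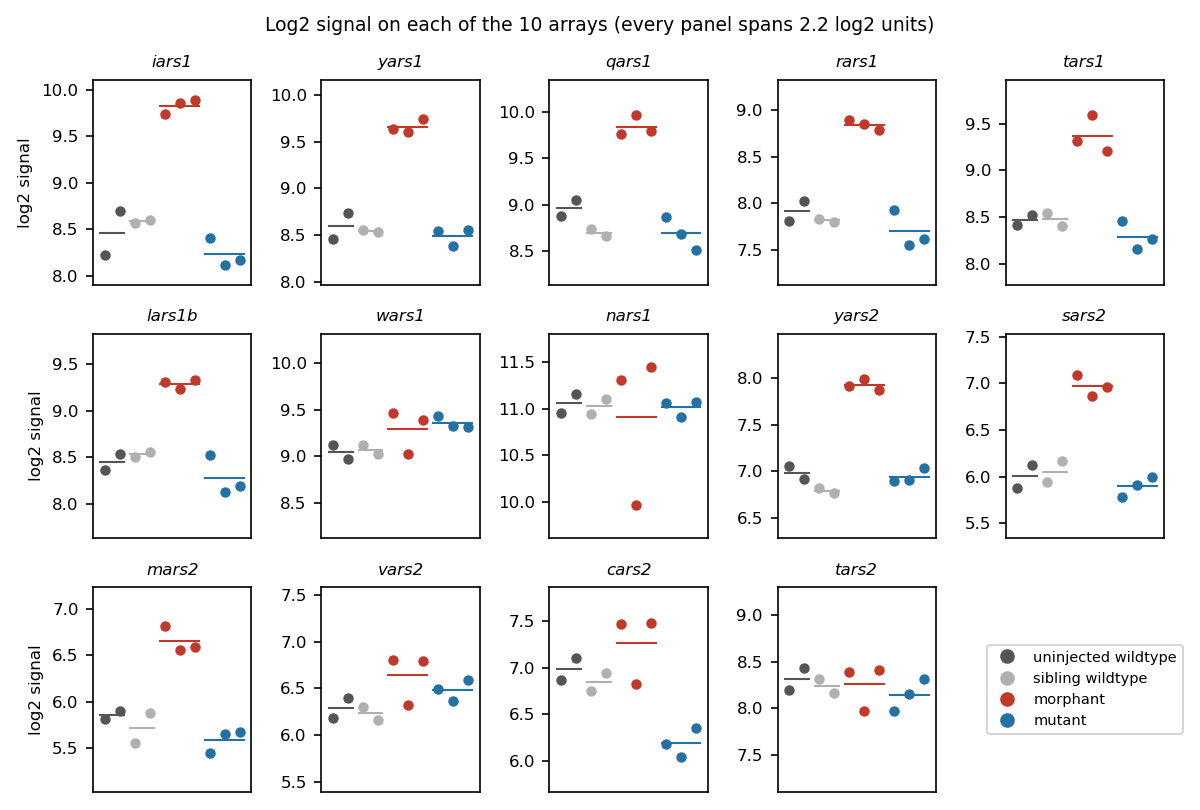
Log2 signal (y axis) on each of the 10 arrays for 14 synthetase genes, with uninjected wildtype in dark grey, sibling wildtype in light grey, morphants in red and mutants in blue, in replicate order within a group, and a line at each group mean. The morphant points of iars1, yars1, qars1, rars1, tars1, lars1b, yars2, sars2 and mars2 lie above all other points of their panel, and a single morphant array is far below the other 2 for nars1.

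Asparaginyl-tRNA synthetase (nars1, probe set 13112970) was the cytosolic gene with the lowest value, and 1 array decided it. The morphant arrays read 11.31, 9.96 and 11.45, the mutant arrays 11.06, 10.91 and 11.08, the uninjected arrays 10.96 and 11.16 and the sibling arrays 10.95 and 11.11. Morphant replicates 1 and 3 were above every control and replicate 2 was below every one. The log2 fold change against controls was -0.14 ± 0.29 (adjusted p = 0.861) with all arrays and 0.34 (adjusted p = 0.143) without morphant replicate 2.

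Tryptophanyl-tRNA synthetase (wars1, probe set 13043006), whose human counterpart is induced by interferon, was the cytosolic gene whose highest group mean was that of the mutants. Its signals were 9.46, 9.02 and 9.39 in morphants, 9.43, 9.33 and 9.32 in mutants, 9.13 and 8.97 in uninjected and 9.12 and 9.02 in sibling embryos. All mutant arrays lay above all control arrays, and morphant replicate 2 lay among the controls. Neither comparison with controls passed the test (0.23 ± 0.11 in morphants, adjusted p = 0.296, and 0.30 ± 0.11 in mutants, adjusted p = 0.275). It was the only cytosolic gene of the 18 with mutants above all controls, a separation found for 6.43% of all probe sets, and no mitochondrial gene had it.

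Among the mitochondrial enzymes 3 genes passed the test. Without morphant replicate 2 there were 5 (cars2 and vars2 in addition), while leaving out any other single array kept the count at 3. Values above 0 on the log2 scale were found for 12 of the 13 mitochondrial and 17 of the 18 cytosolic genes, beside 33656 of all 75212 probe sets. The tyrosine enzyme yars2 (probe set 13159144) gave 7.91, 7.99 and 7.87 in morphants, 6.89, 6.91 and 7.04 in mutants, 7.05 and 6.92 in uninjected and 6.82 and 6.77 in sibling embryos. Morphants did not overlap any other group, and the log2 fold change against controls was 1.03 ± 0.09 (2.05-fold, adjusted p = 0.000332). Its second probe set (13153951) gave 1.14 (adjusted p = 0.000234).

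The serine enzyme sars2 (probe set 13024225) read 7.09, 6.87 and 6.97 in morphants, 5.78, 5.91 and 5.99 in mutants, 5.88 and 6.13 in uninjected and 5.95 and 6.16 in sibling embryos. The methionine enzyme mars2 (probe set 13014773) read 6.81, 6.55 and 6.59 in morphants, 5.45, 5.65 and 5.68 in mutants, 5.81 and 5.90 in uninjected and 5.55 and 5.88 in sibling embryos. For both genes the morphant arrays stood clear of all others. The log2 fold changes against controls were 0.95 ± 0.10 for sars2 (adjusted p = 0.000931) and 0.86 ± 0.11 for mars2 (adjusted p = 0.00244).

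The other 10 mitochondrial genes had log2 fold changes from -0.02 (tars2) to 0.41 (lars2, adjusted p = 0.123) in morphants against controls. For fars2 the probe set used gave 0.09 (adjusted p = 0.591) and the second one (13148585) gave 0.24 (adjusted p = 0.126). All morphant arrays lay above all control arrays for the second fars2 probe set, but not for the one used. The threonine enzyme tars2 (probe set 13028799) read 8.39, 7.97 and 8.41 in morphants, 7.97, 8.15 and 8.31 in mutants, 8.20 and 8.44 in uninjected and 8.31 and 8.17 in sibling embryos, so that all groups overlapped. The valine enzyme vars2 (probe set 13075333) read 6.81, 6.33 and 6.79 in morphants, 6.49, 6.36 and 6.59 in mutants, 6.18 and 6.39 in uninjected and 6.30 and 6.17 in sibling embryos. Morphant replicate 2 lay within the control range while replicates 1 and 3 lay above it, and the log2 fold change was 0.38 ± 0.13 (adjusted p = 0.132), or 0.54 (adjusted p = 0.0294) without replicate 2.

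The cysteine enzyme cars2 (probe set 12947620) was the mitochondrial gene in which the mutants moved furthest. The mutant arrays read 6.18, 6.04 and 6.35, the morphant arrays 7.47, 6.83 and 7.48, the uninjected arrays 6.87 and 7.10 and the sibling arrays 6.75 and 6.95. Mutants lay below every other array, and morphant replicate 2 lay among the controls. The log2 fold change was -0.73 ± 0.16 in mutants against controls (adjusted p = 0.103, unadjusted p = 0.00123) and 0.34 ± 0.16 in morphants against controls (adjusted p = 0.296), neither of which passed, while morphants against mutants gave 1.07 ± 0.18 (adjusted p = 0.00404). Without morphant replicate 2 the mutant difference was the same size and had an adjusted p of 0.0441, and the morphant rise over controls was 0.56 (adjusted p = 0.0464).

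On each morphant array the cytosolic genes stood further above controls than the mitochondrial genes. The mean log2 difference from the control mean over the 18 cytosolic genes was 0.69, 0.65 and 0.70 on morphant arrays 1, 2 and 3, and over the 13 mitochondrial genes it was 0.47, 0.22 and 0.40. On the control arrays these means lay between -0.06 and 0.12 for cytosolic and between -0.04 and 0.09 for mitochondrial genes. Morphant replicate 2 was the lowest of the morphant arrays for 10 of the 13 mitochondrial genes and for 6 of the 18 cytosolic genes. The share of all probe sets for which that array was lowest is not given here, so these counts do not show a trait of the mitochondrial genes. The difference between the cytosolic and the mitochondrial median log2 fold change was 0.55 with all arrays and 0.35 without morphant replicate 2, which raised the mitochondrial median to 0.35. All morphant arrays lay above all control arrays for 16 of 18 cytosolic and 6 of 13 mitochondrial genes, beside 9.18% of all probe sets. They lay above all mutant arrays for 16 of 18 and 7 of 13 genes, beside 16.4%.

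**Figure D3:**
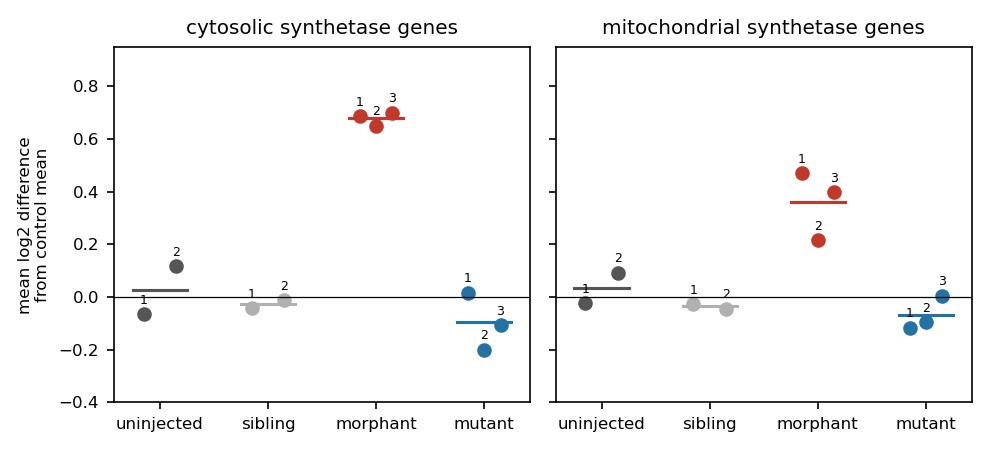
Mean log2 difference from the mean of the 4 control arrays (y axis) over the 18 cytosolic and over the 13 mitochondrial synthetase genes, 1 point per array labelled with its replicate number and a line at each group mean. The morphant points lie between 0.65 and 0.70 for cytosolic genes and between 0.22 and 0.47 for mitochondrial genes, and the mutant points lie between -0.20 and 0.02 in both.

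Comparing enzymes for the same amino acid gave 14 pairs over 13 amino acids, because both subunits of the cytosolic phenylalanine enzyme were set against fars2. The cytosolic gene had the larger log2 fold change (morphants against controls) in 10 of 14 pairs, with a median difference of 0.29. The widest gaps were those of isoleucine (iars1 1.30, iars2 0.18), threonine (tars1 0.90, tars2 -0.02) and arginine (rars1 0.98, rars2 0.07). Tyrosine was the amino acid for which both enzymes rose by over 2-fold. In the pairs for serine, asparagine, methionine and valine the mitochondrial gene had the larger value (sars2 0.95 beside sars1 0.66, and mars2 0.86 beside mars1 0.73). In mutants against controls the cytosolic gene had the larger value in 5 of 14 pairs.

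**Figure D4:**
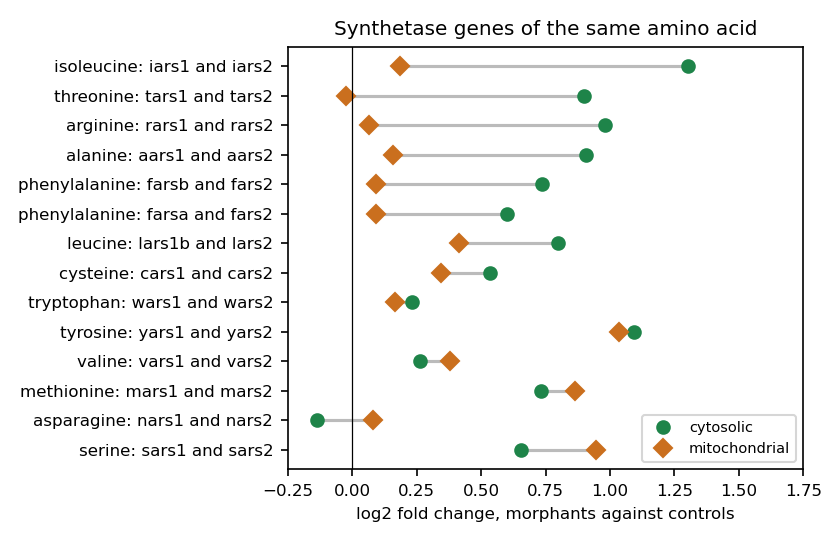
Log2 fold change of morphants against controls (x axis) for the cytosolic (green circle) and the mitochondrial (orange diamond) synthetase gene of each amino acid, ordered by their difference. The circle lies to the right of the diamond in 10 of 14 pairs, and the pairs for tyrosine, methionine and serine have both points above 0.6.

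In mutants, 0 of the 31 synthetase genes were higher and 0 were lower than in controls at an adjusted p below 0.05, beside 0.158% and 0.179% of all probe sets. By the methods' 2-group test the count was also 0, and 4 genes (12.9%) had an unadjusted p below 0.05 in limma (iars1, vars1, wars1 and cars2), beside 13.4% of all probe sets. The log2 fold change was negative for 23 of 31 genes (16 of 18 cytosolic and 7 of 13 mitochondrial). It was negative for 35714 of all 75212 probe sets and for 10707 of the 20806 with 1 symbol, so the mitochondrial share was close to the latter. The median was -0.10 for cytosolic and -0.06 for mitochondrial genes, and values ranged from -0.73 (cars2) to 0.30 (wars1). The size of these medians varied with single arrays, and the cytosolic one was negative in each fit that left out an array. Without mutant replicate 2 the cytosolic and mitochondrial medians were -0.06 and 0.0036, and without uninjected replicate 2 they were -0.05 and -0.02. The cytosolic median was -0.14 without mutant replicate 1. The mitochondrial median was -0.03 without mutant replicate 1 and -0.10 without sibling replicate 1. For iars1, the cytosolic gene with the largest negative value, the log2 fold change was -0.29 with a 95% confidence interval of -0.56 to -0.02 before adjustment (adjusted p = 0.335). All mutant arrays lay below all control arrays for 1 cytosolic gene (sars1) and 1 mitochondrial gene (cars2), beside 5.65% of all probe sets. The cytosolic mean was 0.02, -0.20 and -0.11 on the mutant arrays, so that mutant replicate 1 lay within the control range. Markers of proliferating cells had a mean level of -0.65 to -0.26 in mutants and -0.31 to -0.17 in morphants relative to controls, with 0 of 5 passing in either comparison, and their part in these values was not tested.

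Set directly against each other, morphants exceeded mutants in 19 of 31 genes and fell below them in 0, beside 7.5% and 6.11% of all probe sets. The 19 were 15 cytosolic genes, including vars1 (0.52 ± 0.12, adjusted p = 0.0199), and 4 mitochondrial genes (cars2, mars2, sars2 and yars2). The share of higher ones was 16.9% among probe sets at least as bright as the dimmest cytosolic member. It was 12.8% in the brightness range of the mitochondrial members. The median log2 fold change was 0.83 for cytosolic and 0.23 for mitochondrial genes. Over the fits without each array in turn the mitochondrial median ranged from 0.08 (without morphant replicate 1) to 0.32 (without morphant replicate 2), with 0.15 without morphant replicate 3. In this comparison 2 measured markers each of neurons, lens and photoreceptors were lower in morphants and 2 of proliferating cells (plk1 and birc5a) were higher, as were 1 of gut epithelium (fabp2) and 1 of erythrocytes (hbbe3), while another of erythrocytes (alas2) was lower. In mutants the mean level relative to controls was 0.11 to 0.41 for neurons, 0.07 to 0.43 for lens and 0.11 to 0.70 for photoreceptors. The part of these markers was not tested. With the 2-fold requirement 9 genes passed (iars1, lars1b, qars1, rars1, tars1, yars1, cars2, mars2 and sars2), against 1.64% of all probe sets.

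Each treatment was also set against its own wildtype, morphants against uninjected embryos and mutants against siblings. The difference between these differences was above 0 for 27 of 31 genes, beside 33686 of all 75212 probe sets. It passed the test for 9 genes (aars1, iars1, lars1b, rars1, sars1, tars1, yars1, sars2 and yars2), beside 0.622% of all probe sets, with 0 below (0.153%). This difference was largest for iars1, at 1.72 ± 0.21 on the log2 scale (adjusted p = 0.0125). With 2 arrays in each wildtype group these calls were insecure. Leaving out any single array left 1 to 5 genes, repeating the quantile normalization left 3, and a fit with replicate number as a block left 0 (iars1 at an adjusted p of 0.054). Uninjected and sibling wildtype embryos did not differ for any of the 31 genes at an adjusted p below 0.05 (beside 0.0146% of all probe sets higher and 0.0173% lower). At an unadjusted p below 0.05 in limma the count was also 0, beside 7.06% of all probe sets.

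Synthetase genes outside the naming pattern were measured as well, together with the related genes sepsecs and aarsd1. The bifunctional glutamyl-prolyl enzyme eprs1, a cytosolic member of the mammalian complex, was higher in morphants than in controls (log2 fold change 0.80 ± 0.10, adjusted p = 0.00163). So was sepsecs, which makes selenocysteinyl-tRNA (0.49 ± 0.11, adjusted p = 0.027). The mitochondrial enzymes for glutamate (ears2, -0.25 ± 0.12) and proline (pars2, 0.38 ± 0.12), the threonyl-tRNA synthetase paralogue tars3 (0.23 ± 0.09) and the editing factor aarsd1 (0.48 ± 0.16) did not pass. Among the complex's scaffold proteins, 1 of 4 passed (aimp1a, 0.49 ± 0.09), and the values of aimp2, aimp1b and eef1e1 were 0.37, 0.13 and -0.05.

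Lists of related genes, including the ATF4 list below, were chosen for their function with earlier results of these data known. Their counts in morphants against controls describe these data and are not independent support. They stand beside 3.59% of all probe sets higher and 1.57% lower. Among probe sets at least as bright as the dimmest cytosolic member these shares were 8.86% and 3.86%. Of 26 measured genes of tRNA processing and editing 10 were higher and 0 lower (median 0.39), led by the tRNA ligase rtcb (1.29 ± 0.11), the RNase P subunit rpp40 (1.00 ± 0.14), the tRNA methyltransferase trmt1 (0.90 ± 0.10) and the adenosine deaminase adat2 (0.71 ± 0.11). Of 16 mitochondrial translation factors and tRNA enzymes 6 were higher and 0 lower (median 0.40), among them the ribosome recycling factor mrrf (0.81 ± 0.09) and the pseudouridine synthase pus1 (0.79 ± 0.10). Of 20 cytosolic initiation and elongation factors 3 were higher and 0 lower (median 0.06), namely eif4e1c (0.71 ± 0.10), eif5 (0.46 ± 0.09) and eif2s2 (0.39 ± 0.08).

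In mutants against controls, 1 of the 16 mitochondrial translation factors and tRNA enzymes passed. None of the 26 genes of tRNA processing and editing or of the 20 cytosolic factors did. Of all probe sets 0.158% were higher and 0.179% lower. The gene that passed was mto1, a mitochondrial tRNA-modifying enzyme. It was lower in mutants by a log2 fold change of -0.83 ± 0.13 (adjusted p = 0.0345) and higher in morphants (0.57 ± 0.13, adjusted p = 0.0288).

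Of 41 measured ATF4 pathway genes other than synthetases, 12 were higher in morphants than in controls and 1 (slc7a11, the cystine transporter, -0.51 ± 0.13) was lower, with a median of 0.24, beside the same 3.59% and 1.57% of all probe sets. The largest values were those of atf5b (2.79 ± 0.15), ddit3 (1.95 ± 0.16), atf5a (1.34 ± 0.11) and atf3 (1.29 ± 0.13), all transcription factors of the stress response, and atf4a itself was at 1.18 ± 0.09. Asparagine synthetase (asns), which is not a tRNA synthetase but makes the substrate of nars1, was at 0.46 ± 0.10 (adjusted p = 0.029). Of 5 measured genes among the eIF2alpha kinases and their regulators 1 passed, the kinase activator gcn1 (0.55 ± 0.10, adjusted p = 0.0137), with a median of 0.21. The values of eif2ak1, eif2ak2 and eif2ak3 were 0.21, -0.36 and -0.23. The remaining measured gene, not named here, lay between 0.21 and 0.55 and did not pass. The Gcn2 kinase gene eif2ak4 was not analysed here. In mutants, 0 genes of either list passed.

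**Figure D5:**
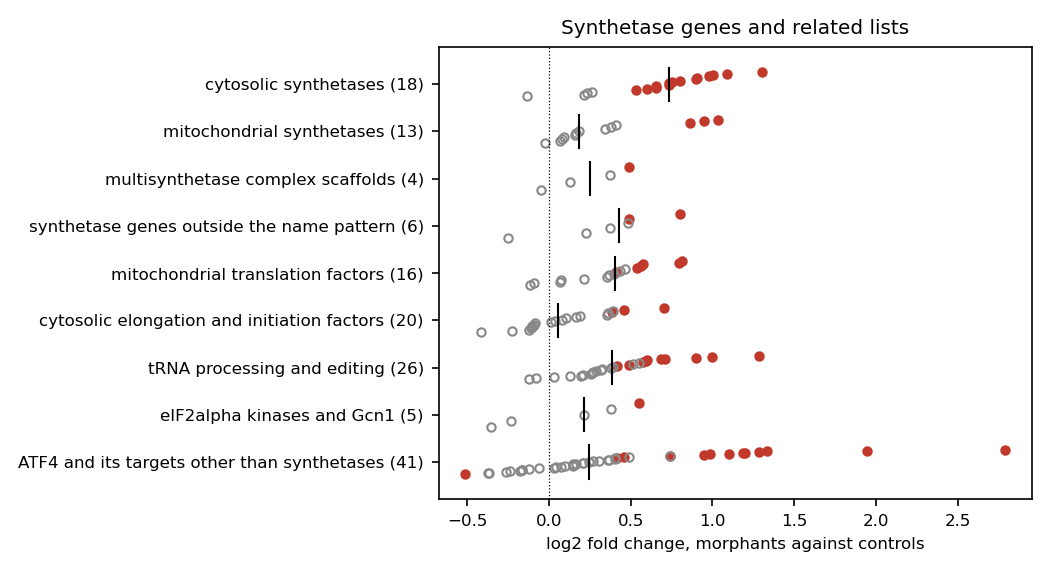
Log2 fold change of morphants against controls (x axis) for each measured gene of the 2 synthetase groups and of 7 related lists, with the number of genes in parentheses, filled red points at an adjusted p below 0.05, open grey points otherwise and a bar at each median. The bar of the cytosolic synthetase genes lies at 0.73, and those of the other rows lie between 0.06 and 0.43.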

How the data were processed

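The deposited log2 signals, made by the authors from single-channel arrays, were used without further normalization. The methods name robust multi-array averaging with the oligo package and the submitters' notes name GCRMA, with versions not given in the sources used here. The deposited values do not settle which form of averaging was used. Quantile normalization, part of such averaging, removes shifts common to all genes, and median polish yields 1 value per probe set. Signals also depend on the probes, so brightness was used across probe sets only as a property of the measurement, not as transcript abundance.

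limma 3.58.1 (R 4.3.3) fitted 1 mean per group (control, morphant, mutant; 7 residual degrees of freedom), and 4 means where the wildtype groups were kept apart. Tests were two-sided, p-values were adjusted over all 75212 probe sets, and an adjusted p below 0.05 was a pass. Each gene was represented by its brightest probe set. Genes given array by array were those past 2-fold in any comparison, the 4 largest changes among those that passed and, within each compartment, the largest rise and fall. Of each related list up to 4 of the largest passing changes are named; atf4a, asns, the eIF2alpha kinases and the scaffold genes were named outside this rule after their values were seen, and synthetases outside the naming pattern were named whatever their value. The members and lists were chosen with earlier results of these data known. Probe sets with several symbols (855) or none (53551) entered the adjustment only. The number of arrays limits the precision. Simulated data with known changes were used to test the scripts. Of 100 changes of 0.75 on the log2 scale, 47 were recovered for morphants against controls and 43 against mutants. Of 100 changes of 1.5, 91 and 89 were recovered. The simulation changed few probe sets, so these rates need not hold for the data. A gene that did not pass is not thereby shown to be unchanged. Figures were drawn with matplotlib 3.10.9.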

Additional observations from a re-analysis of the deposited data

Results flagged for a closer look

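On the 4 control arrays, uninjected replicate 2 stood above the rest for 2 genes, hars (9.09, next 8.85; the gap was 0.83 of the range) and rars1 (8.02, next 7.84; 0.847 of the range). Chance gives such a gap in about 1 group in 20, and it was looked for in all 31 genes. For 9 genes the morphant change against uninjected embryos exceeded the mutant change against siblings by a test of that difference (limma, 4 group means). The differences on the log2 scale were 1.72 for iars1, 1.13 for sars2, 1.11 for yars1, 1.09 for lars1b, 1.09 for tars1, 1.05 for rars1, 0.947 for aars1, 0.787 for yars2 and 0.736 for sars1, with adjusted p from 0.0125 to 0.0486. A fit with replicate number as a block left 0 of these calls, and leaving out 1 array left 1 to 5 genes.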

How the results depend on the processing

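Between morphants and controls, the count of higher genes stayed between 13 and 19 in all alternatives other than the 2-fold requirement (4 genes); with 2-fold left aside, 378 of 391 results for single genes kept their call, 13 lost it (farsa 9, hars 2, mars1 1, mars2 1) and 0 reversed. Between morphants and mutants the count was 15 to 20, and 9 with 2-fold; 390 results kept their call, 9 lost it (vars1 5, farsa 2, cars2 1, hars 1) and 0 reversed. In mutants against controls cars2 was the 1 lower gene when only probe sets with 1 symbol were tested and without morphant replicate 2 (0 to 1 over the arrays left out). The difference between compartment medians ranged from 0.35 to 0.57 (morphants against controls) and from 0.47 to 0.74 (morphants against mutants) as each array was left out. The 9 genes that differed between treatments set against their own wildtype became 3 with quantile normalization repeated, 14 with 1-symbol probe sets, 0 with the replicate block and 1 to 5 with an array left out; these alternatives were added after seeing the data, and the cause was not tested. Whether replicate numbers pair the arrays was not settled. Same-number r was -0.0972 to 0.223 over 13 pairs (2 above 0.1). Different-number r was -0.223 to 0.0992 over 24 pairs (0 above 0.1). Of 10 arrays, 7 correlated best with their own number. The 2 arrays of a wildtype group gave r of equal size and opposite sign with each array of another group, so these r cannot decide it. A replicate block gave 16, 0 and 19 calls in the main comparisons. Few arrays per group limit all of these counts.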
